A study of Mus musculus with 6 samples.

Results

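The 10 genes described here encode elastin (Eln), fibrillin-1 (Fbn1), the microfibril-associated glycoproteins Mfap4 and Mfap5, the elastin microfibril interfacer Emilin1, the fibulins Fbln2, Fbln5 and Efemp2 (fibulin-4), and the latent TGFβ binding proteins Ltbp1 and Ltbp2. They were chosen by gene symbol as proteins of elastic fibres and microfibrils, with earlier results of these data known. Each matched 1 of the 55364 genes listed in the count tables. All 10 had at least 10 counts in every library and were among the 10346 genes tested. The RNA came from primary murine lung fibroblasts (LFs), which the study's methods describe as isolated by collagenase digestion from mice aged 8 to 10 weeks on the C57Bl6/J background and used at passage 2 to 3. The 3 wt libraries came from LFs with intact Tks5 (Sh3pxd2a, the podosome scaffold protein). The other 3 libraries are labelled TKS5 KO, while the paper describes the mutant mice as heterozygous (Tks5+/-). Both genotypes were exposed to 10 ng/ml TGF-β1 in serum-free medium for 24 h, so that the comparison asks how the genotypes differ under TGFβ, and untreated cells were not analysed here.

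Elastic fibres consist of a core of crosslinked elastin deposited on a scaffold of microfibrils, whose backbone is fibrillin. Fibulins and elastin microfibril interfacers join tropoelastin, the soluble precursor of elastin, to the microfibrils, and lysyl oxidases then crosslink it. Latent TGFβ binding proteins belong to the same family of proteins as the fibrillins and attach to microfibrils. In the lung, elastic fibres give the recoil of alveoli, airways and vessels, and fibroblasts and smooth muscle cells are among the cells that make them.

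The libraries were made from the poly(A) end of transcripts and held 1344507 to 2369882 counts. The targeted gene did not check the labels: Sh3pxd2a had 190 to 284 counts in wt libraries and 238 to 260 in the libraries labelled KO, and its log2 fold change was 0.29 (SE 0.20, edgeR adjusted p = 0.249), so that every direction below rests on the labels. By Q-RT-PCR the paper reports reduced Tks5 mRNA in Tks5+/- LFs. The allele it describes removes an exon, while the counts were made on UTR regions. Whether these counts can show that loss was not tested. Log2 fold changes are those of the libraries labelled KO against wt, with their standard error (SE), and values of a group are listed in the order of replicates 1, 2 and 3. Across the 10339 tested genes of known transcript length, longer genes had lower log2 fold changes (Spearman's rho = -0.397, given as a description across genes). Values corrected for this trend are given where they end a call or differ clearly. Nothing in the labels says whether the 3 libraries of a genotype came from separate animals, so that the p-values measure the spread between these libraries.

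In the libraries labelled KO, 6 of the 10 genes were lower than in wt and none was higher. The 6 were Eln, Ltbp2, Mfap4, Fbn1, Fbln2 and Fbln5, with log2 fold changes from -2.83 to -1.19. The counts of Mfap4 cannot be told apart from those of the overlapping gene Mapk7, as described below, so that its call may not be its own. Calls required an adjusted p under 0.05 together with a change of at least 1.2-fold, a rule by which 22.1% of all genes tested were lower, 22.8% were higher and 44.9% were called in either direction. The 6 lower genes made up 60.0% of the 10, a set chosen with earlier results of these data known, so that the shares are a description. The median log2 fold change was -1.19 over the 10 genes and -0.046 over all genes tested. In 7 of the 10 genes every library labelled KO lay below every wt library, and in 1, Ltbp1, every one lay above. Of all genes tested, 27.6% had every library labelled KO below wt, and 53.8% had no overlap in either direction.

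**Figure D1:**
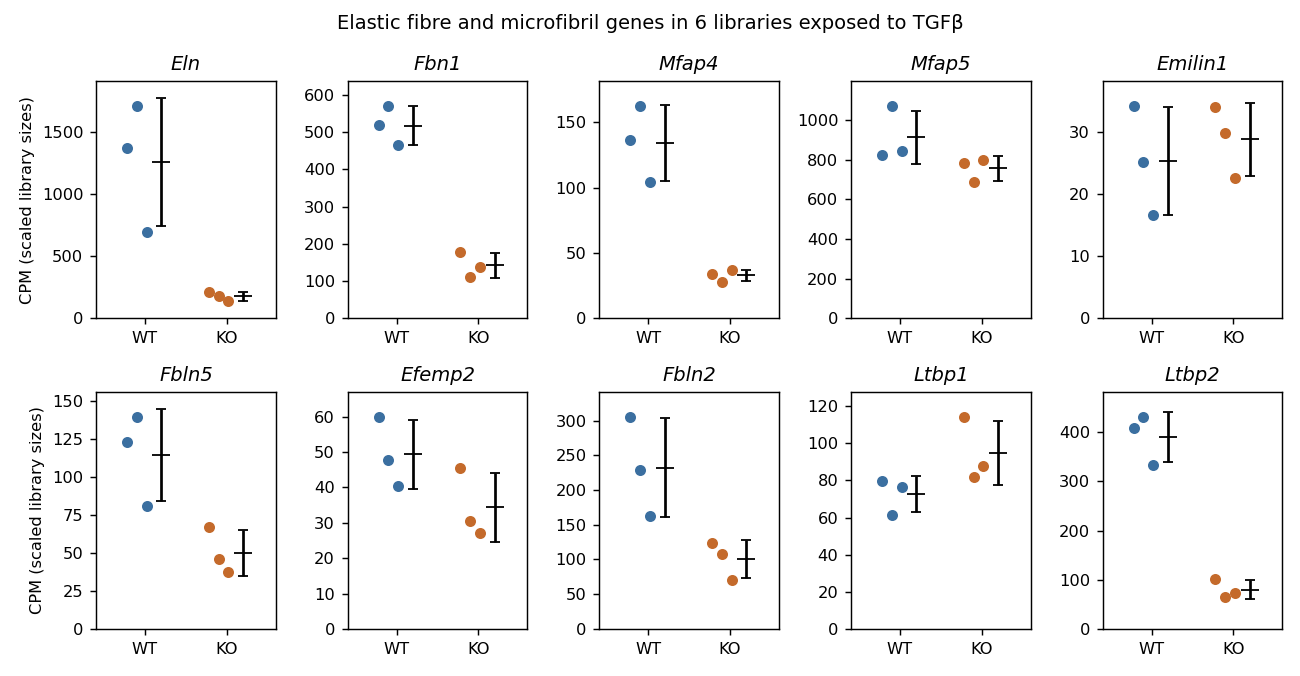
Level of each of the 10 genes in CPM (counts relative to the TMM-scaled library size, vertical axes from 0) in the 3 wt (blue) and 3 KO-labelled (orange) libraries, in replicate order from left to right. Points are libraries and black marks are the mean ± SD (n = 3). Eln, Fbn1, Mfap4 and Ltbp2 show the widest gaps between genotypes, while Emilin1 and Efemp2 overlap.

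Elastin was the member that fell furthest. Eln (chromosome 5 of GRCm38, 134702593 to 134747323, reverse strand) stood at 1371, 1702 and 695 CPM (counts scaled to library size) in the wt libraries and at 208, 181 and 139 CPM in the libraries labelled KO. The lowest wt library was thus above all the libraries labelled KO, although the wt libraries spread widely, with an SD of 40.9% of their mean against 19.7% in the libraries labelled KO. The log2 fold change was -2.83 (95% interval -3.43 to -2.24, adjusted p = 3.76e-07), a 7.13-fold lower level. Wt replicate 3 had the lowest wt level of Eln, and without it the log2 fold change was -3.13. In bulk RNA, fewer cells that express a gene and less RNA per cell cannot be told apart.

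The microfibril genes did not move alike. Fbn1, which encodes the fibrillin that forms the microfibril backbone (chromosome 2, 125300594 to 125507993, reverse strand), had 519, 569 and 466 CPM in the wt libraries. It had 178, 112 and 138 CPM in the libraries labelled KO. The groups stood well apart, with a log2 fold change of -1.86 (SE 0.22, adjusted p = 6.99e-07). Fbn1 has the longest transcript of the 10 genes, at 11971 bases, and its log2 fold change was -1.14 when each library was corrected for its trend with length and -0.99 under the joint correction for length and GC, still lower and called.

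Mfap4, a glycoprotein that binds elastin and fibrillin (chromosome 11, 61485431 to 61488900, forward strand), was read at 136, 162 and 104 CPM in the wt libraries and at 33.5, 28.1 and 36.8 CPM in the libraries labelled KO. The log2 fold change was -2.02 (SE 0.23, adjusted p = 5.28e-07). This value cannot be assigned to Mfap4 alone. The end of Mfap4 shares 89 bases of annotated UTR, chr11:61488812-61488900 of GRCm38, with the end of the kinase gene Mapk7 on the reverse strand. Mapk7 was given 211, 302 and 281 counts in wt libraries and 61, 45 and 72 in those labelled KO, against 212, 303 and 281 and 61, 48 and 72 for Mfap4. In 5 of 6 libraries the counts of both genes were within 1 of each other, and the largest difference was 3, so that their counts cannot be told apart.

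Mfap5, the microfibril-associated glycoprotein MAGP-2 (chromosome 6, 122505845 to 122529290, forward strand), had 824, 1068 and 842 CPM in the wt libraries and 785, 685 and 798 CPM in the libraries labelled KO. Every library labelled KO lay below every wt library, by a small margin, and the log2 fold change of -0.27 was not called (95% interval -0.69 to 0.15, adjusted p = 0.289). Mfap5 was the member whose call depended on the most settings, being lower and called on the authors' normalized counts (-1.06, adjusted p = 4.20e-04), with library totals as the scaling (-0.69, adjusted p = 0.0063) and under the joint correction for length and GC (-0.54, adjusted p = 0.0314).

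**Figure D2:**
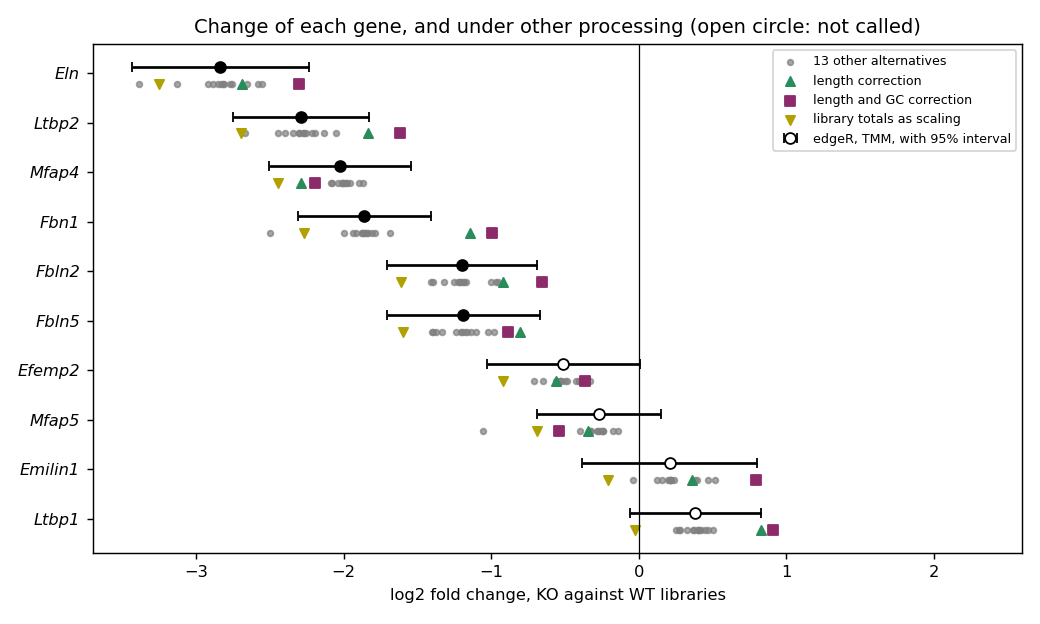
Log2 fold change (horizontal axis) of the 10 genes between the libraries labelled KO and wt, with the 95% interval of the edgeR fit (black, filled where called) and the values under the other processing settings below it. The 6 called genes run from -2.83 for Eln to -1.19 for Fbln5 and stay below 0 under every setting, and Fbn1 moves most towards 0 with the length corrections.

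Among the proteins that join elastin to microfibrils, 2 of 3 fibulins were lower, while Efemp2 and Emilin1 were not called. Emilin1 (chromosome 5, 30913402 to 30921277, forward strand) was the least read member, with 44 to 62 counts in each library. Its levels of 34.1, 25.1 and 16.7 CPM in the wt libraries and 34.0, 29.8 and 22.5 CPM in the libraries labelled KO overlapped, and the log2 fold change of 0.21 had a 95% interval from -0.38 to 0.80 (adjusted p = 0.575). It was -0.21 with library totals as the scaling, and called higher only under the joint correction for length and GC (0.80, adjusted p = 0.0291).

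Fbln5, which tethers tropoelastin to microfibrils and to cell surface integrins (chromosome 12, 101746565 to 101819055, reverse strand), had 123, 139 and 80.8 CPM in the wt libraries. It had 66.9, 45.6 and 37.4 CPM in the libraries labelled KO. The groups did not overlap and the log2 fold change was -1.19 (SE 0.25, adjusted p = 5.67e-04), or -0.81 under the length correction and still called. Fbln2, a larger fibulin that binds fibrillin and other matrix proteins (chromosome 6, 91212455 to 91272540, forward strand), had 305, 229 and 162 CPM in the wt libraries. It had 124, 108 and 71.1 CPM in the libraries labelled KO, again without overlap, and its log2 fold change was -1.20 (SE 0.25, adjusted p = 4.52e-04). Under the joint correction for length and GC it was -0.65 and still called.

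Efemp2 encodes fibulin-4, which brings lysyl oxidase to tropoelastin (chromosome 19, 5473954 to 5482517, forward strand). Its levels were 59.9, 47.6 and 40.4 CPM in the wt libraries and 45.5, 30.4 and 27.1 CPM in the libraries labelled KO. The groups overlapped through KO replicate 1, and the log2 fold change of -0.51 was not called (95% interval -1.03 to 0.01, adjusted p = 0.103). Without KO replicate 1 Efemp2 was called lower (-0.71, adjusted p = 0.0365), as it was with library totals as the scaling (-0.92, adjusted p = 0.00705). The end of Efemp2 overlaps that of Mus81 on the opposite strand over 173 bases of annotated UTR. Mus81 had 18 to 36 counts per library where Efemp2 had 52 to 109, so that at most part of the reads can be shared.

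The promoters of Fbln5, called lower, and Efemp2, not called, are shown because both are short fibulins that handle tropoelastin and their calls differed. Each stretch is the 120 bases (RefSeq, GRCm38.p6) before the outermost annotated start, at chr12:101819120-101819239 on the reverse strand and chr19:5473826-5473945 on the forward strand. Capitals mark the GC box letters GGGCGG on either strand.
Fbln5: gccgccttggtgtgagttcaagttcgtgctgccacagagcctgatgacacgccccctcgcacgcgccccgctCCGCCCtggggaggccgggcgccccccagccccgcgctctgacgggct
Efemp2: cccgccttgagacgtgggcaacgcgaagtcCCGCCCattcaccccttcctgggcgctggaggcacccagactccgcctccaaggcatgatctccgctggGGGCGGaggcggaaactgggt
Both hold the GC box, Fbln5 with 1 match and Efemp2 with 2.

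The latent TGFβ binding proteins moved apart. Ltbp2, which binds fibrillin but not latent TGFβ (chromosome 12, 84783212 to 84876532, reverse strand), had 408, 431 and 333 CPM in the wt libraries and 102, 65.0 and 73.2 CPM in the libraries labelled KO. The log2 fold change was -2.29 (SE 0.22, adjusted p = 8.27e-08), a 4.88-fold lower level and the smallest adjusted p among the 10 genes. It was -1.84 under the length correction and -1.62 under the joint correction for length and GC, called in both. Ltbp1, which binds latent TGFβ and stores it in the matrix (chromosome 17, 75005568 to 75392512, forward strand), had 79.8, 61.5 and 76.4 CPM in the wt libraries. In the libraries labelled KO it had 114, 81.9 and 88.0 CPM, each above every wt library. The log2 fold change of Ltbp1 was 0.38 and not called (95% interval -0.06 to 0.83, adjusted p = 0.151). It was called higher under the length correction (0.83, adjusted p = 0.00299) and under the joint correction (0.91, adjusted p = 0.00118), while it was -0.027 with library totals as the scaling.

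Within each library, a ratio of counts does not depend on the scaling between libraries. The log2 ratio of Ltbp2 to Ltbp1 counts, singled out after its values were seen, was 2.35, 2.81 and 2.13 in the wt libraries and -0.17, -0.33 and -0.27 in the libraries labelled KO. The ratio was above 0 in every wt library and below 0 in every library labelled KO. The longest transcripts of the pair measure 6769 and 6671 bases. The promoters of this pair are shown as those of related genes whose RNA moved apart. The 120 bases before the outermost annotated start lie at chr12:84876559-84876678 on the reverse strand and chr17:75005360-75005479 on the forward strand, with the GC box or the CCAAT box (CCAAT, either strand) in capitals.
Ltbp2: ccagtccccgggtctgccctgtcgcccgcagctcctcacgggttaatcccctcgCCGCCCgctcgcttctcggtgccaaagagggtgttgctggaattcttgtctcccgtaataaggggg
Ltbp1: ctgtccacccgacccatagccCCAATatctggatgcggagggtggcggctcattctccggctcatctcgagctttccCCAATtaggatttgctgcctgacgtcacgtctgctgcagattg
The Ltbp2 stretch holds 1 GC box and no CCAAT box, and the Ltbp1 stretch holds 2 CCAAT boxes and no GC box. Among the 32851 mouse promoters in the table, 32.7% hold GGGCGG and 33.8% hold CCAAT in the 250 bases before the start. The TATA box TATAAA (in 12.4% of promoters), the SMAD-binding letters CAGACA (17.1%), the AP-1 site TGANTCA (6.75%) and the TEAD site GGAATG (12.6%), searched on both strands, were in none of the 4 stretches, and no marked matches overlap. All these shares are of 250 bases, longer than the stretches shown, which would hold fewer matches. In the 250 bases before another annotated start, CAGACA was found 1 time for Fbln5 and 2 times for Ltbp1. RefSeq promoters were matched for 7 of the 10 genes, and such matches describe letters and not sites in use.

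The elastic fibre genes took a smaller part of the reads in the libraries labelled KO, and elastin lost more than most of the others. All 10 genes together held 0.446%, 0.503% and 0.321% of the counts in the wt libraries and 0.156%, 0.111% and 0.120% in the libraries labelled KO. These shares are of unscaled library totals, which gave lower fold changes than TMM scaling. On scaled library sizes the 10 genes summed to 2818 to 4434 CPM in wt libraries and 1366 to 1691 CPM in those labelled KO. Of the counts of the 10 genes, the wt libraries gave Eln 32.9% ± 7.23 (SD, n = 3) and those labelled KO gave it 11.8% ± 1.82 (SD, n = 3). The share of Mfap5 went from 25.1% ± 4.37 (SD, n = 3) to 50.8% ± 4.68 (SD, n = 3). Neither share overlapped between genotypes (exact two-sided permutation test, p = 0.1 each, the smallest that 3 libraries against 3 allow). Shares of the same total depend on each other, and the level of Mfap5 itself was not higher in the libraries labelled KO.

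Counted against each of the other 9 genes within the same library, Eln had a lower mean log2 ratio in the libraries labelled KO in all 9 cases. The mean log2 ratio changed most against Ltbp1, by -3.14, against Emilin1, by -2.98, and against Mfap5, by -2.50. It changed least against Ltbp2, by -0.45, against Mfap4, by -0.74, and against Fbn1, by -0.88. On the authors' normalized counts the order differed. The change was then -3.78 against Emilin1, -3.64 against Ltbp1, -2.98 against Efemp2 and -2.33 against Mfap5. It was -2.01 against Fbln5, -1.99 against Fbln2, -1.40 against Mfap4, -0.89 against Fbn1 and -0.71 against Ltbp2. The ratios to Ltbp2 and Fbn1 overlapped between genotypes (exact two-sided permutation test, p = 0.2 each) and the other 7 did not (p = 0.1 each, exact two-sided permutation test). After adjustment over the 9 ratios these p-values were 0.2 and 0.129, and no ratio could have passed 0.05 with 3 libraries against 3.

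**Figure D3:**
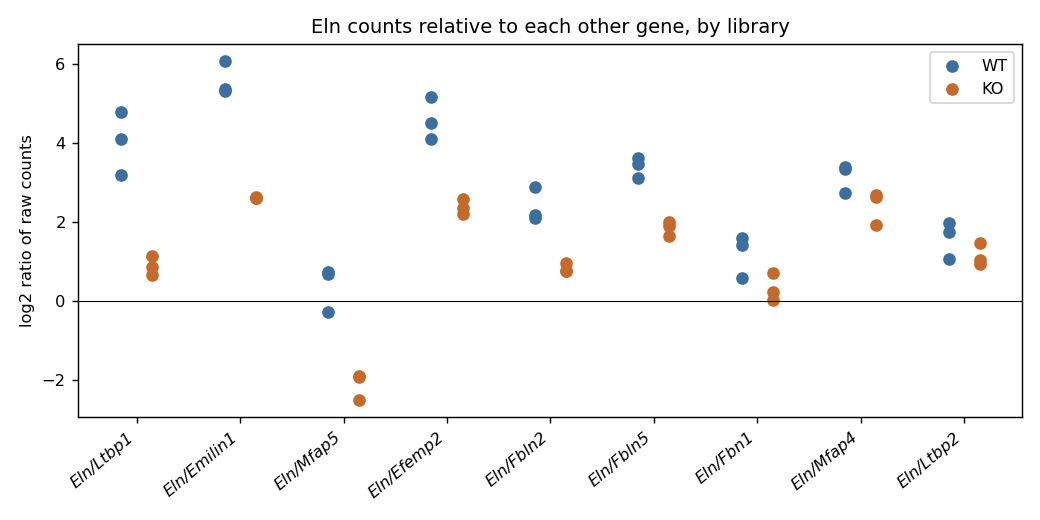
Log2 ratio of Eln counts to those of each other gene within a library, for 3 wt (blue) and 3 KO-labelled (orange) libraries, ordered from the largest to the smallest change. A value of 0 means equal counts. Only the ratios to Fbn1 and Ltbp2 overlap between genotypes, and the ratio to Mfap5 lies below 0 in every library labelled KO.

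Of 67 other genes that make, bind, crosslink or degrade elastic fibres, 49 were tested. The libraries labelled KO had lower levels of 27 and higher levels of 4. This is 55.1% lower and 8.16% higher, against 22.1% and 22.8% of all genes tested, and the median log2 fold change was -0.88. This list too was chosen with earlier results of these data known. Under the joint correction for length and GC, 19 were lower and 5 higher, where of all 10339 genes tested 1799 were lower and 1944 higher. With library totals as the scaling 34 were lower and 3 higher, where of all 10346 genes tested 3944 were lower and 1362 higher. Of 8 tested relatives of the microfibril and fibulin proteins, 4 were lower. Efemp1 (fibulin-3) averaged 25.2 ± 9.29 CPM (SD, n = 3) in wt and 2.23 ± 1.05 (SD, n = 3) in the libraries labelled KO, which is -3.47 on the log2 scale (adjusted p = 2.08e-06). The others named by the smallest adjusted p were Adamtsl5, a fibrillin-binding protein (-1.46, adjusted p = 4.43e-04), and Ltbp4, which binds fibulins and latent TGFβ (-1.44, adjusted p = 7.38e-04). Ltbp4 was not called under the joint correction for length and GC (-0.76, adjusted p = 0.0570). Ltbp3, the remaining one, was not called under the length correction (-0.43, adjusted p = 0.0988) or the joint correction (-0.22, adjusted p = 0.414), so that the joint correction left 2 of the 4.

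Of 5 tested crosslinking enzymes, 2 were lower, the lysyl oxidases Lox and Loxl1. Lox went from 3315 ± 514 CPM (SD, n = 3) to 963 ± 193 (SD, n = 3), or -1.78 on the log2 scale (adjusted p = 1.54e-06), and Loxl1 from 485 ± 111 (SD, n = 3) to 238 ± 73.0 (SD, n = 3), with -1.02 (adjusted p = 0.0013). Loxl1 was not called under the joint correction for length and GC (-0.51, adjusted p = 0.0574). The transglutaminase Tgm2 was at 0.35 and not called (adjusted p = 0.194), but was higher and called under the GC correction (0.56, adjusted p = 0.0381) and under the joint correction for length and GC (0.79, adjusted p = 0.00346), and its sign turned with library totals as the scaling and on the authors' normalized counts. Of 6 genes for the folding, secretion and copper supply of matrix proteins, 3 were lower, the proton pump subunit Atp6v0a2 (-1.12, adjusted p = 4.46e-04), the chaperone Fkbp10 (-0.96, adjusted p = 0.00128) and the proline synthesis enzyme Pycr1 (-0.86, adjusted p = 0.0119). Aldh18a1, another proline synthesis enzyme of this group, was higher (0.87, adjusted p = 0.0457) and lost its call in every fit without 1 library except the one without wt replicate 1. Pycr1 was not called without KO replicate 1 (adjusted p = 0.0641) or KO replicate 2 (adjusted p = 0.0652), nor with DESeq2 or the joint correction.

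Genes for matrix proteins that bind microfibrils or elastin were lower in 3 of 5 cases. The proteoglycan biglycan (Bgn) fell from 4805 ± 659 CPM (SD, n = 3) to 1180 ± 266 (SD, n = 3), or by 2.03 on the log2 scale (adjusted p = 3.64e-07), perlecan (Hspg2) by 1.95 on the log2 scale (adjusted p = 1.48e-06) and fibronectin (Fn1), on which fibrillin assembles, by 1.55 on the log2 scale (adjusted p = 3.56e-06). Of 9 tested receptor genes, 7 were lower and 2 were not called. The integrin subunits Itgav, Itgb3 and Itga5 lost their calls under the length correction (adjusted p = 0.203, 0.0656 and 0.0588) and under the joint correction, which left 4. Itgb3 and Itga5 were also not called with DESeq2 or without wt replicate 3 (edgeR adjusted p = 0.0616 and 0.122), nor Itga5 without KO replicate 1 (edgeR adjusted p = 0.0865) or on the authors' normalized counts. The genes for the proteins of the elastin receptor complex were all lower in RNA. Protective protein cathepsin A (Ctsa) changed by -2.18 (adjusted p = 5.61e-08). Glb1, whose splice variant binds elastin, changed by -1.21 (adjusted p = 1.30e-04) and the sialidase Neu1 by -1.19 (adjusted p = 5.42e-04). Counts per gene do not tell the variants of Glb1 apart, and protein was not measured here. Itgb5, an integrin subunit that binds fibrillin and fibulin-5 in its pair with αv, changed by -1.11 (adjusted p = 1.56e-04).

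RNA of the 3 TGFβ ligands, whose latent forms Ltbp1, Ltbp3 and Ltbp4 bind, was lower. Tgfb2 had 152, 205 and 158 counts in the wt libraries and 42, 21 and 48 in those labelled KO, with a log2 fold change of -2.13 (adjusted p = 3.20e-06). Tgfb1 had 22 to 41 counts in wt libraries and 4, 1 and 18 in those labelled KO, with -1.74 (adjusted p = 0.0109). It was not called without KO replicate 1 (adjusted p = 0.0691) or KO replicate 2 (adjusted p = 0.05002). Tgfb3, at -0.63 (adjusted p = 0.0232), was not called in 4 of the 6 fits without 1 library, those without wt replicates 1 or 2 or KO replicates 1 or 3 (adjusted p from 0.0593 to 0.118). Tgfb3 was also not called under the joint correction for length and GC (-0.40, adjusted p = 0.147) or with DESeq2 (-0.61, DESeq2 adjusted p = 0.0789).

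**Figure D4:**
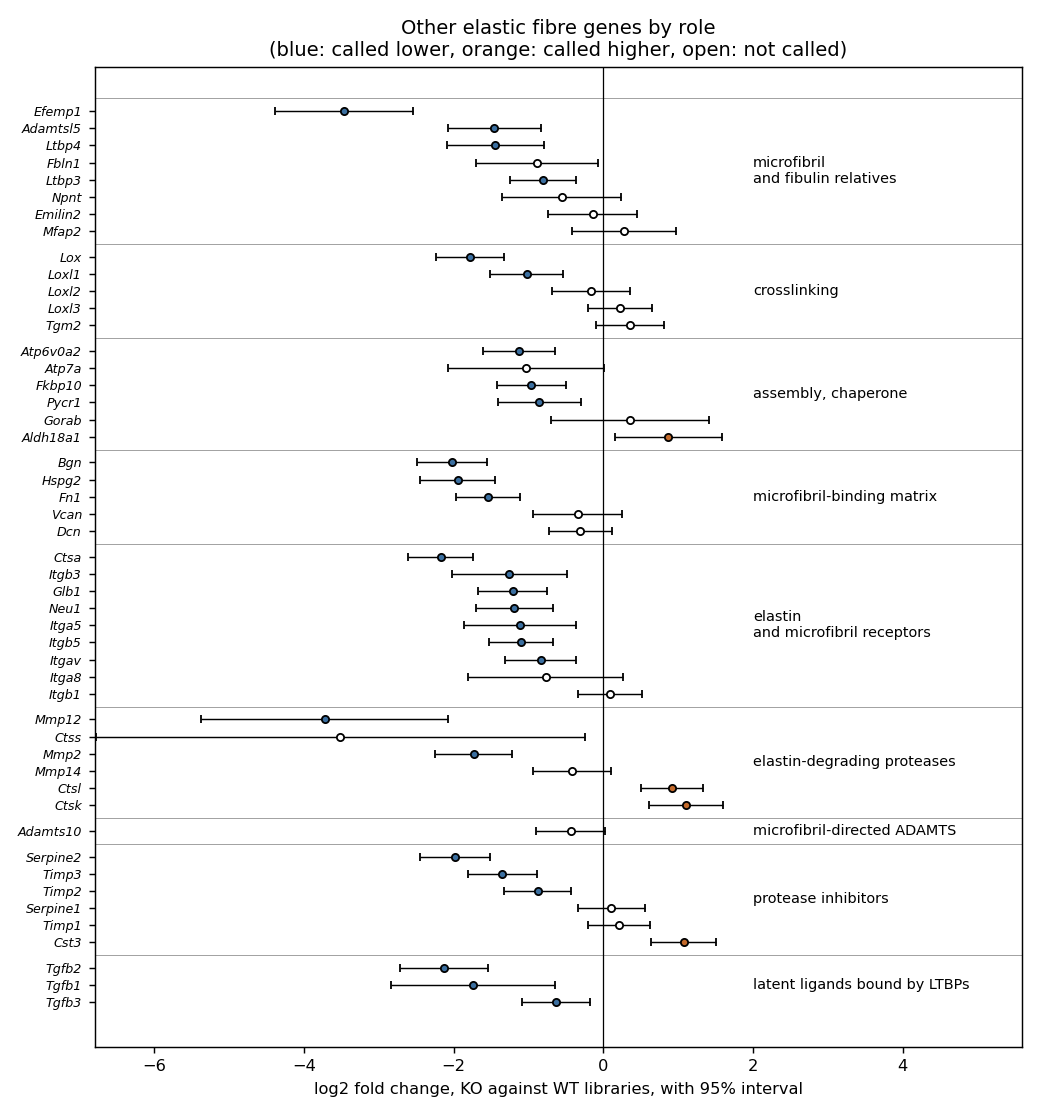
Log2 fold change with its 95% interval for the 49 tested genes of the wider elastic fibre list, grouped by role, in the libraries labelled KO against wt. Filled blue points are lower (27 genes), filled orange points higher (4 genes) and open points not called (18 genes). The interval of Ctss reaches almost to the edge at the left.

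Markers of other cell types moved with the genotype, and their part in these results was not tested. The summed level of 10 macrophage markers was 294 to 1848 CPM in wt libraries, the highest in wt replicate 3, and 104 to 128 CPM in the libraries labelled KO, where Ptprc, Adgre1 and Marco were at 0 (a count of 0 allows up to 3 counts). Of these markers 5 of 7 tested were lower, where 22.1% of all genes tested were lower and 22.8% higher. Without wt replicate 3 the 6 elastic fibre genes were all still called, with log2 fold changes from -3.13 to -1.40. Macrophage markers still summed to 340 and 294 CPM in wt replicates 1 and 2, so that this fit does not remove the difference in markers. Summed over 5 endothelial markers the level was 82.4 to 108 CPM in wt libraries and 19.3 to 26.6 CPM in those labelled KO, where Pecam1 was at 0, and all 3 tested were lower. The 5 mesothelial markers summed to 20.9 to 25.1 CPM against 3.58 to 12.1 CPM, with 1 of 1 tested lower, and the 5 epithelial markers to 14.4 to 35.6 CPM against 29.2 to 60.3 CPM, where the only one tested, Ager, was higher and made up the whole sum in the libraries labelled KO. Sftpc and Scgb1a1 were at 0 in all libraries. Cdh1, with 8 to 58 counts in wt libraries, and Epcam, with 1 to 3, were at 0 in those labelled KO.

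Smooth muscle and pericyte markers, of cells that also make elastic fibres, moved both ways: 4 of 9 tested were lower and 2 higher, against 22.1% and 22.8% of all genes tested. Their sum was 5023 to 5919 CPM in wt libraries and 6442 to 7336 CPM in those labelled KO. The 9 fibroblast markers were present in all libraries, at 3876 to 5254 CPM against 5598 to 8715 CPM, with 1 lower and 4 higher. The 7 markers of adventitial fibroblasts summed to 59.7 to 107 CPM against 23.4 to 43.4 CPM, with 2 of 4 tested lower, and the 5 of alveolar fibroblasts to 19.3 to 57.8 CPM against 24.6 to 33.4 CPM, with 1 of 3 tested lower and 1 higher. Of the genes that check sex and strain, Ddx3y, on the Y chromosome, was lower (log2 fold change -2.84, adjusted p = 1.45e-08), Eif2s3y, on the same chromosome, was not called (-0.23, adjusted p = 0.688), and Nnt, which differs between C57BL/6 substrains, was lower (-1.56, adjusted p = 2.38e-04). Uty and Kdm5d, also on the Y chromosome, had too few counts for the test but were read in every library. Uty had 4, 15 and 23 counts in wt libraries and 6, 3 and 6 in those labelled KO. Kdm5d had 2, 9 and 5 and then 3, 8 and 2. Xist, a noncoding RNA, was at 0 in all libraries, and whether counting on UTR regions can read it was not tested.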

How the data were processed

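The authors deposited raw counts per gene. They trimmed reads with Trim Galore at a Phred score of 20, aligned them to GRCm38 with HISAT2 and then BOWTIE2, counted them on UTR regions of at least 300 bases with 50 bases of flank (metaseqR2) and summed them per gene. The authors' normalized counts, made with EDASeq and rounded, served as a score in 1 alternative. All 6 libraries have the same total in it, 2062822. Whether counting kept to 1 strand is not given in the sources used here. Of 55364 genes, 55104 were matched to GENCODE M21 (GRCm38).

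Raw counts of all 6 libraries, filtered by filterByExpr and scaled by TMM, were tested by the robust quasi-likelihood method of edgeR 4.0.16 under R 4.3.3, with Benjamini-Hochberg adjustment over all genes tested. Every adjusted p is from this test unless another is named. CPM were computed on scaled library sizes, and standard errors and 95% intervals come from the fit. A count of 0 was read as allowing up to 3 counts. The fits were tested on simulated data in which far fewer genes were changed than were called here, so that this does not show how they do on changes this widespread. Alternatives were DESeq2 1.42.0, limma 3.58.1 on log2 of the normalized counts + 1, other scalings and filters, corrections of each library for its loess trend (span 0.5, prior count 2) with GC content or length of the longest transcript, a replicate block, and the omission of each library in turn. All 10 elastic fibre genes and Sh3pxd2a are named, and of each role group of the wider list the 3 tested genes with the smallest adjusted p. Aldh18a1, Neu1, Ltbp3, Itgav, Itgb3, Itga5, Mmp12, Ctss, Mapk7, Mus81 and the named markers were chosen after their values were seen. The genes and lists were chosen with earlier results of these data known. Plots were made with matplotlib 3.10.9.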

Additional observations from a re-analysis of the deposited data

How the results depend on the processing

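Eln, Fbn1, Mfap4, Fbln2, Fbln5 and Ltbp2 were called lower under all 16 alternatives, with Eln between -3.39 and -2.30. These calls include Mfap4, whose counts cannot be told apart from those of Mapk7. The number of the 10 genes called lower ran from 6 to 8, and the number called higher was 0 except with the length correction (1, Ltbp1) and under the joint correction for length and GC (2, Ltbp1 and Emilin1). Emilin1 changed sign with library totals as the scaling (-0.21) and without wt replicate 3 (-0.042), with 0.47 as its highest value when 1 library was left out, and Ltbp1 with library totals (-0.027). The causes were not tested. With library totals as the scaling, the median over all genes was -0.47 on the log2 scale, against -0.046, with 3944 genes lower and 1362 higher, against 2286 and 2356. Over all alternatives 3705 to 5306 genes were called. With the replicate block, 6 of the 10 genes and 4668 of all genes were called, and no call among the 10 changed. Deviations of same-numbered libraries correlated at -0.001, -0.064 and 0.082, so that the numbers do not show pairs. The ratios of Eln to the other genes kept their direction throughout. Over all alternatives, 19 to 34 of the wider list were lower and 3 to 5 higher. Emilin1 had 44 to 62 counts per library, and its interval allows a change in either direction.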

Other observations

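Genes for the breakdown of elastic fibres moved both ways. The libraries labelled KO had lower levels of 2 and higher levels of 2 of the 6 tested elastin-degrading proteases. Among all genes tested 22.1% were lower and 22.8% higher. The gelatinase Mmp2 had 261, 333 and 419 counts in wt replicates 1 to 3 and 115, 48 and 115 in those labelled KO, with a log2 fold change of -1.73 (adjusted p = 8.84e-06). The cysteine cathepsins Ctsk (2.14-fold, adjusted p = 7.09e-04) and Ctsl (1.89-fold, adjusted p = 7.65e-04) were higher. Ctsk was not called under the joint correction for length and GC (0.52, adjusted p = 0.0742), nor Ctsl with limma on the authors' normalized table (0.29, adjusted p = 0.222). The macrophage elastase Mmp12 had 96, 90 and 462 counts in wt and 19, 13 and 7 in the libraries labelled KO. Ctss had 71, 87 and 988 and then 17, 29 and 28. Both were highest in wt replicate 3, as were the macrophage markers. Mmp12 was lower (-3.72, adjusted p = 0.00527) but not called without KO replicate 2 (adjusted p = 0.0544), and Ctss was called lower only with DESeq2 (-3.46, adjusted p = 0.00338) and without wt replicate 3 (-1.77, adjusted p = 3.98e-05).

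Of 6 tested protease inhibitors, 3 were lower and 1 higher, against 22.1% and 22.8% of all genes tested. Serpine2 (protease nexin-1) changed by -1.99 (adjusted p = 4.89e-07) and the metalloproteinase inhibitor Timp3 by -1.35 (adjusted p = 4.03e-05), while the cysteine protease inhibitor cystatin C (Cst3) rose by 1.07 on the log2 scale (adjusted p = 2.40e-04). Cst3 was not called with the length correction (0.47, adjusted p = 0.0698). Of the ADAMTS proteases directed at microfibrils, only Adamts10 was tested, at -0.44 and not called (adjusted p = 0.115). It was called lower with library totals as the scaling (-0.86, adjusted p = 0.00328) and its sign turned under the joint correction.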
